A study of Homo sapiens with 9 samples.

Results

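The genes of MHC class I and of peptide loading were followed in H1975 cells, a human lung adenocarcinoma line, in which a guide RNA directs a transcriptional repressor. They are 9 genes of the 57102 left after transcript estimates were summed to genes: the heavy chains HLA-B, HLA-C and HLA-E, the light chain B2M, the transporter subunits TAP1 and TAP2, the chaperone TAPBP and the immunoproteasome subunits PSMB8 and PSMB9. They were named as a set with earlier results of these data known. All 9 passed the filter on low counts that left 19851 genes for testing. The cells carry dCas9-KRAB, a nuclease-dead Cas9 fused to a repressor domain, under a promoter that doxycycline switches on (TRE). There were 3 groups of 3 libraries: cells with TRIDENT gRNA1, cells with TRIDENT gRNA2 and control cells with a non-targeting guide (NT). TRIDENT is the long noncoding RNA the guides were designed against, and all 9 libraries, controls included, came from cells given 4 ug/ml doxycycline for 72 h, so the repressor was induced in every group. The labels do not say whether the 3 libraries of a group came from separate cultures. The p-values therefore measure the spread between these libraries, which may be technical.

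MHC class I molecules show peptides from inside the cell to CD8 T cells. Proteasomes cut proteins to peptides, the TAP transporter carries the peptides into the endoplasmic reticulum, and tapasin, the product of TAPBP, helps load them onto a heavy chain bound to B2M. Interferons raise transcription of the whole set, through interferon-stimulated response elements and the activator NLRC5, and tumour cells that lose class I are seen less well by CD8 T cells. H1975 cells make class I themselves, without an immune cell being present.

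The libraries held 16918432 to 26466536 estimated reads each. The target RNA, found under its RefSeq symbol TRIDDENT, had few reads: 36, 49 and 38 in gRNA1 libraries, 61, 60 and 42 in gRNA2 libraries, and 49, 56 and 62 in control libraries. TRIDDENT stood at 0.745 times the control level with gRNA1 (95% interval 0.587 to 0.946, adjusted p = 0.129) and at 0.945 times with gRNA2 (0.752 to 1.19, adjusted p = 0.811). Repression of the target therefore did not pass the test with either guide at this depth, and with gRNA2 its reads overlapped those of the control. All 5 markers of lung epithelium were high, their summed level being 1980 to 2050 CPM, reads scaled to a common library size, in gRNA1 libraries, 1920 to 1990 CPM in gRNA2 libraries and 2110 to 2210 CPM in control libraries. The sum for 6 blood-cell markers was 58.9 to 62.8 CPM in gRNA1 libraries, 62.2 to 71.8 CPM in gRNA2 libraries and 61.1 to 65.3 CPM in control libraries, and nearly all of it was CD68, a lysosomal protein that is not confined to blood cells. The defining lymphocyte markers CD3E and NKG7 had between them 1 read in the 9 libraries. The epithelial sum was thus lower in both guide groups than in every control library, and its part in the differences below was not tested. In bulk RNA, fewer cells of a type and less RNA per cell cannot be told apart.

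Right before each gene's start, the sequences show which members match fixed patterns for elements that interferon and NF-kappaB factors are known to bind. RefSeq promoters (build GRCh38.p14) were matched for 8 of the 9 members, HLA-E having none in the table. The windows below are the 250 bases before the start of the 5 members that are in the table and that differed between the guides, 5′ to 3′ on the gene's strand. Capitals mark a match, on either strand, to an interferon response element (GAAA, any 2 bases, GAAA) or to a kappaB element (GGG, any 5 bases, CC). Matches overlap in places, as in B2M and TAPBP, and then run together.
HLA-B promoter, chr6:31357180-31357429, minus strand: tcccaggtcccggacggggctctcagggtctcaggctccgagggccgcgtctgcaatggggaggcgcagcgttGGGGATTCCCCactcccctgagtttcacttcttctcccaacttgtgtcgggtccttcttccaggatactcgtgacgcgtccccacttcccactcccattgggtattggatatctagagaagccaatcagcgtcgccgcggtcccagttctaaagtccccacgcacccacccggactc
HLA-C promoter, chr6:31272093-31272342, minus strand: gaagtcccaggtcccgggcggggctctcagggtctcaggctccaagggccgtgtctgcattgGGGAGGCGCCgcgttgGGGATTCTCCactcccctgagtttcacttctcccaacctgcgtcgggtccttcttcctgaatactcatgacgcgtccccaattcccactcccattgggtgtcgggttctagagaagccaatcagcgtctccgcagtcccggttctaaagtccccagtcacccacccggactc
B2M promoter, chr15:44711267-44711516, plus strand: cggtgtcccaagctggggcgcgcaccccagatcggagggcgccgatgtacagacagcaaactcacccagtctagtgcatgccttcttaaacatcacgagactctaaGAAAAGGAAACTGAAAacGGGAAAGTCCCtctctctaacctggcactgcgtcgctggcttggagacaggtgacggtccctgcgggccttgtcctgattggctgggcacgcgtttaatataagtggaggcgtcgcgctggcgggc
TAP2 promoter, chr6:32838740-32838989, minus strand: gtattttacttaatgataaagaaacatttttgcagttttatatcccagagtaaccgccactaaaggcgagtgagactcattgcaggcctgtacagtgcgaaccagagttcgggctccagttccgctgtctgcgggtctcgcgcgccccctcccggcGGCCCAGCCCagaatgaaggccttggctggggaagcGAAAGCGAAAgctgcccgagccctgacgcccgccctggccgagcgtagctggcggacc
TAPBP promoter, chr6:33314079-33314328, minus strand: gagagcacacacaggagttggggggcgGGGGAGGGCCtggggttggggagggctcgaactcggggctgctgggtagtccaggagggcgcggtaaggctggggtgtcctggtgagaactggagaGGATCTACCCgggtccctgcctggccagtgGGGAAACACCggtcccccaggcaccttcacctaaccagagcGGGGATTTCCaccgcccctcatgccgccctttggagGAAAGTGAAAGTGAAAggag
Letters that match the interferon pattern exactly occurred in 4 of the 8 members with a promoter (B2M, TAP1, TAP2 and TAPBP). They occurred in 3.02% of all 35116 promoter windows of this length. The 8 members had 10 windows in all, and a match in any window counted for its gene. Copies that depart from the fixed letters were not counted, so a gene without a match may still carry the element in another spelling. In B2M a pair of overlapping matches lay between 144 and 129 bases before the start, in TAP2 a single one lay between 58 and 49 bases before it, and in TAPBP a pair lay between 20 and 5 bases before it. The kappaB letters occurred in 6 of the 8, but they are common, being present in 54.4% of all windows. A match describes letters only, and none was tested for binding.

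Except for B2M (chr15:44711487-44718877, plus strand), the genes lie in the MHC of chromosome 6 in GENCODE 29 (build GRCh38), from HLA-E (chr6:30489467-30494205, plus strand) to TAPBP (chr6:33299694-33314387, minus strand). HLA-C (chr6:31268749-31272130) and HLA-B (chr6:31269491-31357188), both on the minus strand, overlap by 2640 bases in their gene models. Side by side in the class II region lie TAP2 (chr6:32821833-32838780, minus strand), PSMB8 (chr6:32840717-32844703, minus strand), PSMB9 (chr6:32844136-32859585, plus strand) and TAP1 (chr6:32845209-32853978, minus strand). The human MHC is so variable that the reference genome holds alternate copies of it, and the deposited tables list transcripts on those copies beside the primary chromosomes. Where a gene's reads were assigned decided whether it could be seen at all. On transcripts outside the primary assembly lay 99.1% of the reads of HLA-B, 89.7% of HLA-C, 99.0% of TAPBP and 97.2% of PSMB8, and every read of HLA-E and TAP2. For B2M, TAP1 and PSMB9 the share was 0.903%, 11.6% and 10.2%. In the primary assembly alone HLA-B kept 24 to 51 reads per library of the 2871 to 4911 it had in all, and PSMB8 kept 12 to 40 of 649 to 1085. The tables lack 16 primary transcripts of these genes, among them all 3 of HLA-E, and for each of the 16 they hold a transcript of the same gene and length on another sequence. All values below are sums over both kinds of transcript. Values on the primary assembly alone are given where they differ in call or direction.

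**Figure D1:**
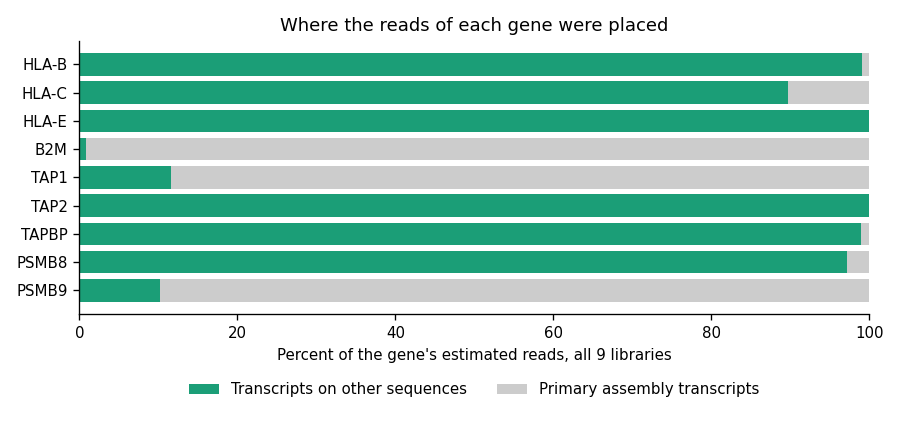
Share of each gene's estimated reads, in percent, assigned to transcripts on the primary assembly and to transcripts on other sequences, over the 9 libraries. HLA-E and TAP2 have no reads on the primary assembly, and B2M has nearly all of its reads there.

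Sequence shared between genes limits how far each can be told apart. Of the different 31-base stretches in the GENCODE 29 transcripts, 25.5% in HLA-B, 17% in HLA-C and 31.7% in TAP2 also occur in other genes, against 1.79% in B2M. A gene on the same strand, ENSG00000250264, covers the whole gene model of TAP2 and had no reads. The gene models of TAP1 and PSMB9 lie on opposite strands and have 8770 bases in common. The RefSeq promoter window of PSMB9 ends at chr6:32854191, however, past the end of the TAP1 model at 32853978. Most PSMB9 reads, 89.2%, lay on ENST00000374859.2, with 782 bases. The lincRNA PSMB8-AS1, with 77.3 reads per library on average, overlaps both PSMB8 and TAP1 from the opposite strand. The strand setting of the quantification was not given in the sources used here, so reads of such partners cannot be told apart with certainty. Values of the heavy chains, TAP1, TAP2, PSMB8 and PSMB9 are uncertain to that extent.

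In control libraries the light chain was far above its partners. In TPM, a level per transcript length, B2M stood at 784.7 ± 11.1 in the control libraries (SD, n = 3), which ranked it 107 of 31955 genes with a value. HLA-B followed at 201.5 ± 4.97 TPM and HLA-C at 86.97 ± 10.8 TPM, each clear of the next gene in every control library. TAPBP at 52.39 ± 2.17 TPM and HLA-E at 48.71 ± 2.46 TPM overlapped, the lowest TAPBP library being at 50.74 and the highest HLA-E library at 51.49. Below them came PSMB8 at 32.82 ± 0.934, PSMB9 at 23.87 ± 1.5, TAP2 at 20.83 ± 1.57 and TAP1 at 13.08 ± 1.04 TPM, with no overlap between neighbours. In summed TPM the transporter pair was thus the lowest of the set. Short copies weigh heavily in such sums. TAP2 transcript ENST00000460458.1, with 274 bases, held 2.03% of TAP2 reads in control libraries and gave a mean of 7.1 TPM there. The order of levels and the ratios of TPM therefore depend in part on how reads were divided among copies. The summed TPM of the 3 heavy chains was 0.420 ± 0.0226 times that of B2M in gRNA1 libraries, 0.473 ± 0.0426 times in gRNA2 libraries and 0.430 ± 0.0117 times in control libraries (SD, n = 3 each), ranges that overlap.

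In CPM the set stood lower in gRNA1 libraries than in gRNA2 and control libraries, and most of the calls were between the guides. With gRNA1, all 9 genes had a fold below 1 against the control and 2 of them, HLA-B and TAP2, fell by the test, beside 3.7% of all genes tested that fell (7.35% changed in either direction). With gRNA2, 6 genes had a fold above 1 and 3 below it, and none of the 9 passed the test, beside 8.79% of all genes that changed (3.93% higher, 4.86% lower). Against gRNA1, gRNA2 libraries were above in all 9 genes, and 6 of them rose by the test (HLA-B, HLA-C, HLA-E, B2M, TAP2 and TAPBP), beside 3.21% of all genes that rose and 3.2% that fell. The median log2 fold of the 9 genes was -0.13 for gRNA1 over control, 0.05 for gRNA2 over control and 0.17 for gRNA2 over gRNA1, and that of all genes tested was -0.0000674, 0.00942 and 0.00382. Both guides were set against the same 3 control libraries, so those 2 comparisons are not independent. The count of 0 for gRNA2 over control is from edgeR, in which 1 of the 9 genes (HLA-B) had an unadjusted p under 0.05; DESeq2 called 1, also HLA-B. With an offset for the average length of the transcripts used, HLA-B alone remained called between the guides (adjusted p = 0.00153) and none of the 9 with gRNA1. On protein-coding transcripts alone HLA-B (adjusted p = 0.0198) and HLA-E (0.0235) remained between the guides and none with gRNA1, and on the primary assembly alone the genes called were HLA-C (0.0122) and B2M (0.0453) between the guides and HLA-C (0.0233) with gRNA1.

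**Figure D2:**
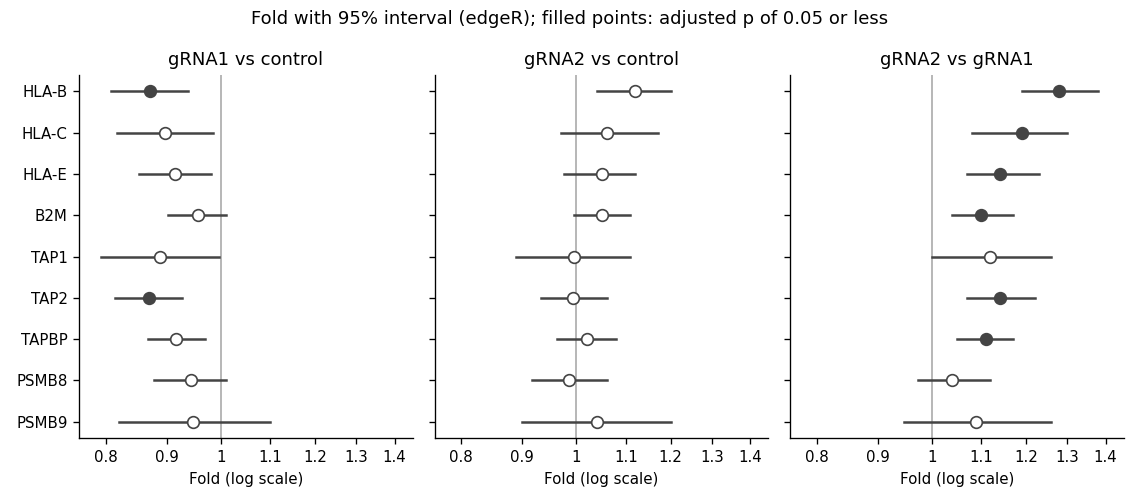
Fold of each of the 9 genes on a log-scaled axis with its 95% interval, for gRNA1 over control, gRNA2 over control and gRNA2 over gRNA1. Filled points mark genes past an adjusted p of 0.05. The gRNA1 over control points all lie below 1, and the gRNA2 over gRNA1 points all lie above it.

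Library by library the shift in CPM was seen in all 3 gRNA1 libraries. The mean over the 9 genes of the log2 CPM relative to the control mean was -0.152, -0.148 and -0.106 in gRNA1 libraries, 0.105, 0.016 and 0.012 in gRNA2 libraries, and 0.047, -0.038 and -0.009 in control libraries. The gRNA1 libraries lie apart below the other 6, while gRNA2 and control libraries overlap. In CPM all 3 gRNA1 libraries were below all 3 control libraries for 7 of the 9 genes (not B2M and PSMB9), beside 14.6% of all genes. All 3 gRNA2 libraries were above all 3 gRNA1 libraries for 7 genes (not PSMB8 and PSMB9), beside 11.9% of all genes, and above all 3 control libraries for HLA-E alone, beside 13.8%. TPM also takes in the length of the transcripts used. In TPM fewer of the 9 genes lay below the control and more above it, and the shares of all genes shifted likewise. The change from CPM to TPM is therefore not particular to the 9 genes. All gRNA1 libraries were below all control libraries for 2 genes (HLA-B and B2M), beside 8.12% of all genes, and all gRNA2 libraries were above all control libraries for 2 (HLA-B and HLA-E), beside 17.3%. All gRNA2 libraries were above all gRNA1 libraries in TPM for 5 genes (HLA-B, HLA-E, B2M, TAP1 and TAPBP), beside 13.4%.

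**Figure D3:**
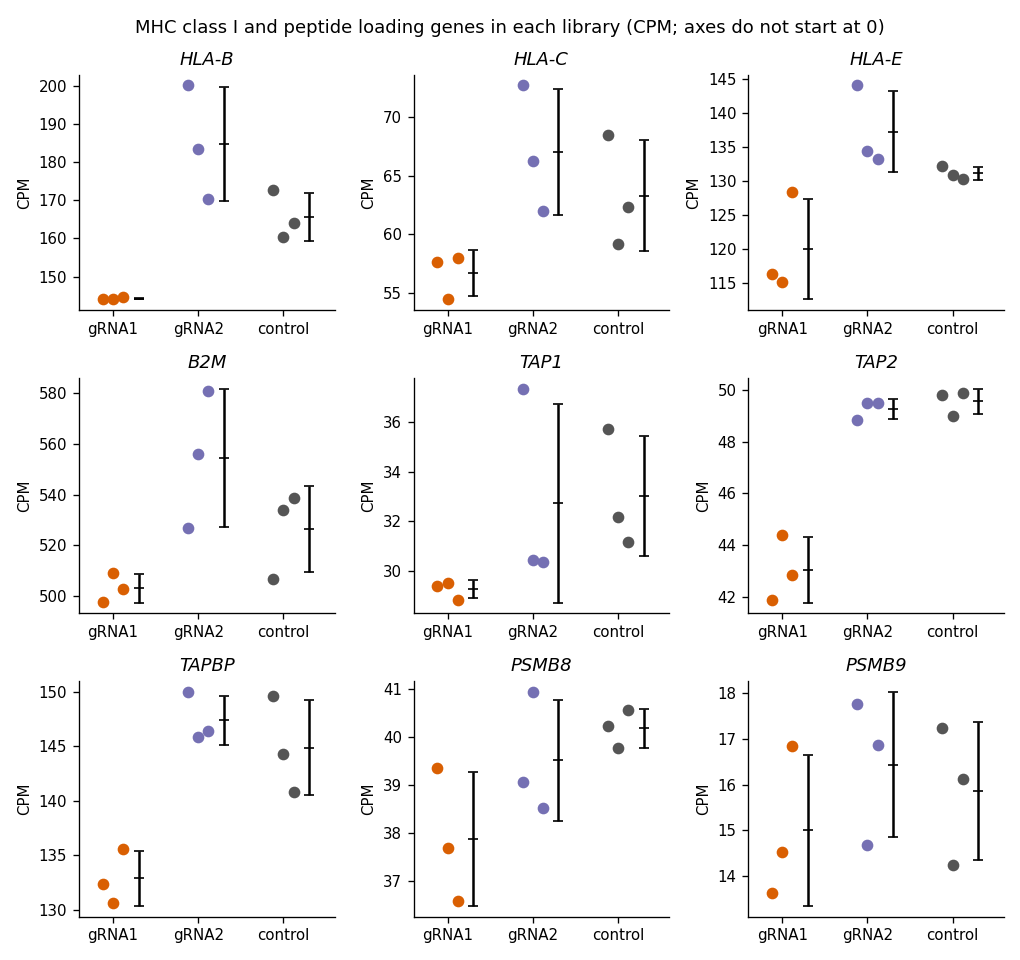
Level of each of the 9 genes in CPM in every library, with points for gRNA1, gRNA2 and control libraries and bars for the group mean. For HLA-B the 3 gRNA1 points lie together near 144 CPM, below every control point and every gRNA2 point.

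Among the heavy chains, which present the peptide, HLA-B moved most. HLA-B had 144.0, 144.2 and 144.5 CPM in gRNA1 libraries, 200.1, 183.5 and 170.4 CPM in gRNA2 libraries, and 172.6, 160.3 and 164.0 CPM in control libraries. The gRNA1 libraries were below all others, and the gRNA2 libraries reached from within the control range to well above it. In TPM HLA-B had 190.3, 188.5 and 167.0 in gRNA1 libraries, 251.0, 247.3 and 249.4 in gRNA2 libraries, and 198.3, 198.9 and 207.2 in control libraries, with no overlap between any of the groups. Short copies weigh heavily in that sum. Transcript ENST00000640675.1, with 240 bases, held 2.54%, 3.13% and 2.6% of HLA-B reads in gRNA1, gRNA2 and control libraries. It gave means of 34.1, 54.8 and 39.9 TPM there, so the TPM separation depends in part on how reads were divided among copies. HLA-B fell to 0.871 times the control level with gRNA1 (95% interval 0.808 to 0.939, adjusted p = 0.0275). With gRNA2 the fold was 1.12 (1.04 to 1.2, adjusted p = 0.063), and gRNA2 over gRNA1 it was 1.28 (1.19 to 1.38, adjusted p = 0.000503). The difference between the guides passed the test with each of the 9 libraries left out in turn, with adjusted p between 0.000154 and 0.00454. The gRNA1 call ended without control library 1 (adjusted p = 0.111), control library 3 (0.0767) or any one gRNA1 library (0.0852, 0.0912 and 0.0621 without libraries 1, 2 and 3), and the gRNA2 fold over control passed without gRNA2 library 3 (0.015).

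HLA-C, the classical chain next to HLA-B, had 57.67, 54.44 and 57.97 CPM in gRNA1 libraries, 72.7, 66.27 and 62.03 CPM in gRNA2 libraries, and 68.45, 59.13 and 62.29 CPM in control libraries. HLA-E, which presents signal peptides of the other class I chains to NKG2A receptors of natural killer cells, had 116.3, 115.2 and 128.4 CPM in gRNA1 libraries, 144.0, 134.4 and 133.2 CPM in gRNA2 libraries, and 132.2, 130.9 and 130.3 CPM in control libraries. For both genes the gRNA1 libraries were below the control libraries without overlap, and gRNA2 libraries were above all gRNA1 libraries. Against the control neither passed, with folds of 0.897 for HLA-C (0.817 to 0.985, adjusted p = 0.153) and 0.915 for HLA-E (0.853 to 0.981, adjusted p = 0.115) with gRNA1. Between the guides both rose, HLA-C by 1.19-fold (1.08 to 1.3, adjusted p = 0.0289) and HLA-E by 1.14-fold (1.07 to 1.23, adjusted p = 0.0208). With gRNA2 over control the folds were 1.06 (0.97 to 1.17, adjusted p = 0.422) and 1.05 (0.977 to 1.12, adjusted p = 0.423). The HLA-C call ended without any one gRNA1 library or without gRNA2 library 1 or 2 (adjusted p 0.0503 to 0.136), and the HLA-E call ended without gRNA1 or gRNA2 library 1 or 2 (0.0628 to 0.126). Without gRNA1 library 3, the one in which HLA-E was highest, HLA-E also fell with gRNA1 against control (adjusted p = 0.0275).

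The light chain B2M, without which no classical chain reaches the surface, had 497.7, 509.1 and 502.6 CPM in gRNA1 libraries, 526.7, 556.0 and 581.0 CPM in gRNA2 libraries, and 506.9, 534.0 and 538.5 CPM in control libraries. The gRNA2 libraries were above the gRNA1 libraries, and both overlapped the control libraries. B2M rose between the guides, at 1.1-fold (1.04 to 1.17, adjusted p = 0.0405), with folds against control of 0.956 for gRNA1 (0.903 to 1.01, adjusted p = 0.339) and 1.05 for gRNA2 (0.995 to 1.11, adjusted p = 0.255). This is the smallest of the 6 called differences. It ended without control library 2 or 3, any one gRNA1 library, or gRNA2 library 2 or 3 (adjusted p 0.0558 to 0.191).

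Of the transporter and its chaperone, TAP2 was the one gene past the test with gRNA1. TAP2, one of the 2 subunits of the peptide pump, had 41.89, 44.4 and 42.83 CPM in gRNA1 libraries, 48.82, 49.48 and 49.51 CPM in gRNA2 libraries, and 49.79, 48.99 and 49.89 CPM in control libraries. The gRNA1 libraries lay apart below the rest, and the gRNA2 and control libraries overlapped. It fell to 0.869 times the control level with gRNA1 (0.815 to 0.927, adjusted p = 0.0103), was at 0.994 times with gRNA2 (0.933 to 1.06, adjusted p = 0.937), and rose by 1.14-fold between the guides (1.07 to 1.22, adjusted p = 0.0138). The gRNA1 call ended without control library 3 (adjusted p = 0.0516) or gRNA1 library 1 (0.0719), and the call between the guides without gRNA1 library 1 or gRNA2 library 2 (0.0886 and 0.0861). With the offset for transcript length the TAP2 call was lost: the gRNA1 fold was -0.09 on the log2 scale (adjusted p = 0.715). That average effective length was 2408.7, 1822.4 and 2053.8 bases in gRNA1 libraries, 2180.5, 2165.9 and 2226 bases in gRNA2 libraries, and 2427.1, 2241.5 and 2091.2 bases in control libraries.

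TAPBP, which holds empty heavy chains at the transporter, had 132.4, 130.6 and 135.6 CPM in gRNA1 libraries, 150.0, 145.9 and 146.4 CPM in gRNA2 libraries, and 149.6, 144.3 and 140.8 CPM in control libraries. It missed the threshold with gRNA1 against control, at a fold of 0.917 (0.868 to 0.969, adjusted p = 0.0569), and rose between the guides, at 1.11-fold (1.05 to 1.17, adjusted p = 0.025). The fold for gRNA2 over control was 1.02 (0.963 to 1.08, adjusted p = 0.739). Its gRNA1 libraries stood below all 6 others. The call between the guides ended without gRNA1 or gRNA2 library 1 or 2 (adjusted p 0.0598 to 0.138), and without gRNA2 library 1 the gRNA1 fall passed (0.0458). On the primary assembly alone, where 13 to 50 reads per library lie, the log2 fold between the guides was -0.57 and did not pass.

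TAP1, the partner of TAP2, had 29.42, 29.54 and 28.86 CPM in gRNA1 libraries, 37.33, 30.46 and 30.39 CPM in gRNA2 libraries, and 35.73, 32.16 and 31.17 CPM in control libraries. The spread in gRNA2 comes from 1 library, gRNA2 library 1, which was above the highest control. No fold of TAP1 passed: 0.889 for gRNA1 over control (0.793 to 0.996, adjusted p = 0.208), 0.996 for gRNA2 over control (0.89 to 1.11, adjusted p = 0.979) and 1.12 between the guides (1.0 to 1.26, adjusted p = 0.25). As a ratio of TPM, TAP1 to TAP2 was 0.611 ± 0.0929 in gRNA1 libraries, 0.648 ± 0.0526 in gRNA2 libraries and 0.633 ± 0.0977 in control libraries (SD, n = 3 each).

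No immunoproteasome subunit passed the test in any comparison. PSMB8, the inducible subunit that replaces PSMB5, had 39.36, 37.69 and 36.6 CPM in gRNA1 libraries, 39.08, 40.95 and 38.53 CPM in gRNA2 libraries, and 40.23, 39.77 and 40.57 CPM in control libraries. PSMB9, which replaces PSMB6, had 13.64, 14.52 and 16.84 CPM in gRNA1 libraries, 17.77, 14.68 and 16.86 CPM in gRNA2 libraries, and 17.23, 14.25 and 16.13 CPM in control libraries. All 3 groups overlapped for PSMB9, and only gRNA1 and control libraries of PSMB8 stood apart. The folds for PSMB8 were 0.943 with gRNA1 (0.878 to 1.01, adjusted p = 0.323), 0.985 with gRNA2 (0.918 to 1.06, adjusted p = 0.836) and 1.04 between the guides (0.973 to 1.12, adjusted p = 0.529). For PSMB9 they were 0.948 (0.821 to 1.1, adjusted p = 0.703), 1.04 (0.9 to 1.2, adjusted p = 0.798) and 1.09 (0.948 to 1.26, adjusted p = 0.522). A difference between the guides of the size seen for HLA-B, 1.28-fold, lies above both intervals. The smaller folds of the other called genes, from 1.1 for B2M to 1.19 for HLA-C, lie inside the PSMB9 interval. Those of B2M and TAPBP (1.11) lie inside the PSMB8 interval too. The test thus leaves room for a difference of that smaller size in PSMB9 and, up to 1.12-fold, in PSMB8.

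The constitutive catalytic subunits were compared as the partners that immunoproteasome subunits displace. PSMB5 fell with gRNA1, to 0.894 times the control level (adjusted p = 0.0499), and with gRNA2, to 0.887 times (adjusted p = 0.0324), and PSMB7 fell with gRNA2, to 0.894 times (adjusted p = 0.0149). With gRNA1, 1 of the 3 constitutive subunits fell (PSMB5), beside 3.7% of all genes, and with gRNA2 2 of 3 fell, beside 4.86%. Over 8 other ways of analysis, the PSMB5 call held in 3 with gRNA1 and in 5 with gRNA2, and the PSMB7 call in 7. The PSMB7 call was lost without control library 2 or 3 or gRNA2 library 2 (adjusted p 0.063 to 0.0723). The PSMB5 call held without gRNA2 library 1 or 3 alone with gRNA1, and without gRNA1 library 2 or 3 or gRNA2 library 1 with gRNA2, with adjusted p up to 0.166 and 0.115 otherwise. The ratio of TPM of PSMB8 to PSMB5 was 0.734 ± 0.0602 in gRNA1 libraries, 0.744 ± 0.0571 in gRNA2 libraries and 0.699 ± 0.0329 in control libraries. That of PSMB9 to PSMB6 was 0.374 ± 0.0197, 0.456 ± 0.0622 and 0.395 ± 0.0493 in the same order of groups, and that of PSMB10 to PSMB7, the third pair, was 0.162 ± 0.00227, 0.16 ± 0.0445 and 0.142 ± 0.0144 (SD, n = 3 each). The ranges of gRNA2 and control overlapped in every pair, and those of gRNA1 and control overlapped except for PSMB10 to PSMB7, with 0.16 to 0.165 in gRNA1 libraries and 0.126 to 0.154 in control libraries.

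Below the gene level, Salmon divided reads among near-identical copies, and the division changed from library to library. PSMB8 transcripts ENST00000438442.6, with 1124 bases, and ENST00000457261.6, with 1125 bases, took turns. The first had 549, 0 and 453.5 reads in gRNA1 libraries, 562.2, 624.9 and 317.6 in gRNA2 libraries, and 0, 561.1 and 519.2 in control libraries. The second had 0, 622.2 and 0 reads in gRNA1 libraries, none in gRNA2 libraries, and 475.4, 0 and 0 in control libraries. In every library 1 of the 2 held the reads and the other held none. TAPBP transcript ENST00000383198.6 varied in the same groups too, with no reads in gRNA1 libraries, 731.9, 0 and 415.2 in gRNA2 libraries, and 81.49, 561.3 and 552.8 in control libraries. A difference in a single MHC transcript between these groups is therefore not read as isoform use, and sums over a gene's copies are used throughout. Summed TPM still depends on that division, through the lengths of the copies. HLA-B was divided mainly between ENST00000425848.6 with 43.2% of its reads and ENST00000416726.5 with 34.7%, whereas 95.9% of HLA-E reads lay on ENST00000427936.4 and 90.6% of B2M reads on ENST00000648006.1.

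**Figure D4:**
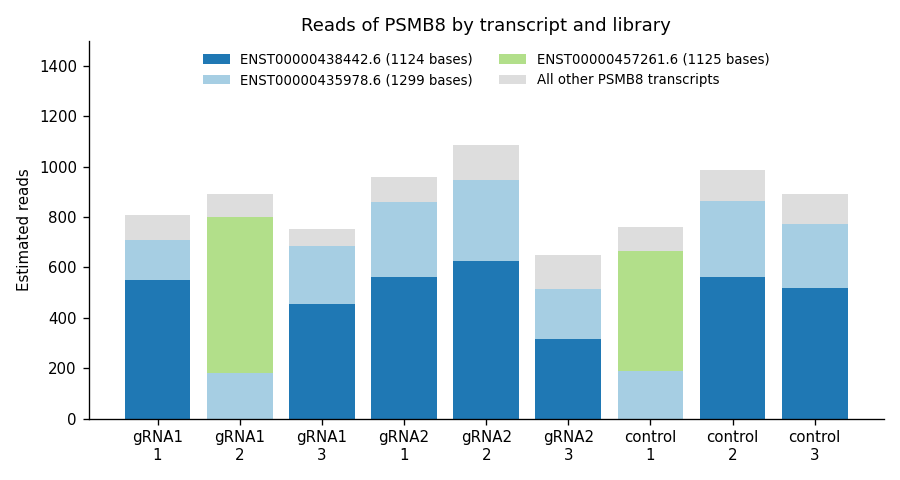
Estimated reads of the main PSMB8 transcripts in every library, by group. The transcripts of 1124 and 1125 bases replace each other from library to library, so that 1 of them is at 0 in each.

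Of 14 further genes of peptide supply, trimming and folding, 4 fell with gRNA1 and 3 with gRNA2, beside 3.7% and 4.86% of all genes that fell, and none differed between the guides, beside 6.41%. The folding chaperones of the endoplasmic reticulum led. CALR, or calreticulin, averaged 458.8 ± 22.4 CPM in gRNA1 libraries, 474.5 ± 6.99 CPM in gRNA2 libraries and 575.6 ± 13.8 CPM in control libraries (SD, n = 3 each). It fell to 0.797 times control with gRNA1 (adjusted p = 8.7e-05) and to 0.825 times with gRNA2 (adjusted p = 0.000337), and these calls held without any single library. CANX, or calnexin, fell to 0.887 and 0.891 times (adjusted p = 0.00595 and 0.00677), and PDIA3, the disulfide isomerase of the loading complex, to 0.89 and 0.888 times (adjusted p = 0.0107 and 0.00871). ERAP2, a peptide-trimming aminopeptidase, fell with gRNA1 alone by the test, to 0.897 times (adjusted p = 0.0497), a call that ended without 6 of the 9 libraries (control 2 or 3, any gRNA1 library, or gRNA2 2; adjusted p 0.0891 to 0.233). With other ways of analysis, the CANX calls were lost on protein-coding transcripts (adjusted p = 0.0539 with gRNA1 and 0.0984 with gRNA2) and on the primary assembly (0.32 and 0.594). Over the 8 ways tried, PDIA3 kept each of its calls in 6 (adjusted p up to 0.269 and 0.193) and ERAP2 in 4 (up to 0.35), and CALR lost its gRNA2 call with the length offset alone (0.0532). PDIA3 lost its gRNA1 call without control library 2 or 3 or gRNA1 library 1 or 2 (adjusted p 0.0531 to 0.0891) and its gRNA2 call without control library 2 (0.0533). CALR, CANX and PDIA3 serve glycoproteins at large and not class I alone, and none of them differed between the guides, with adjusted p of 0.53, 0.961 and 0.98 in edgeR.

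Among 12 class I-like and class I-related molecules, of which 11 were tested, 2 fell with gRNA1, 1 rose with gRNA2, and 3 rose between the guides, beside 3.7%, 3.93% and 3.21% of all genes. With counts this small, 1 of 11 is not set apart from that background. AZGP1, a secreted class I-like protein, averaged 13.07 ± 0.75 CPM in gRNA1 libraries, 18.8 ± 0.681 CPM in gRNA2 libraries and 18.59 ± 0.517 CPM in control libraries (SD, n = 3 each). It fell to 0.701 times control with gRNA1 (adjusted p = 0.000323), was at 1.01 times with gRNA2 (adjusted p = 0.907) and rose by 1.44-fold between the guides (adjusted p = 0.000218), and these calls held without any single library. The other calls were of ligands of the receptor NKG2D, each in a single comparison. MICB fell to 0.776 times with gRNA1 (adjusted p = 0.0247), ULBP1 rose by 1.27-fold with gRNA2 (adjusted p = 0.0187), and between the guides ULBP2 rose by 1.31-fold (adjusted p = 0.03) and MICA by 1.19-fold (adjusted p = 0.0463). ULBP3, a further ligand on the list, passed in none (adjusted p = 0.458, 0.454 and 0.992). The calls did not hold throughout. Over other ways of analysis MICA kept its call in 1 of 7 and turned direction on protein-coding transcripts (log2 fold -0.59), MICB kept it in 4 of 7, ULBP1 in 7 of 8 and ULBP2 in 6 of 8. With single libraries left out, MICB kept its call in 4 of 9 cases (lost without control 2 or 3 or any gRNA1 library), ULBP1 in 6 (lost without control 1 or gRNA2 2 or 3), ULBP2 in 5 (lost without gRNA1 2 or 3 or gRNA2 1 or 3) and MICA in 2 (gRNA1 3 and gRNA2 1), with adjusted p up to 0.119, 0.0865, 0.111 and 0.223. MICA, named outside the rule that picks up to 4 genes of a list, was chosen after its values were seen.

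Of 22 regulators of class I transcription, 1 fell with gRNA1, 2 rose with gRNA2 and 2 rose between the guides, beside 3.7%, 3.93% and 3.21% of all genes, so the share of regulators called was near the background with gRNA1. RFX5, a DNA-binding subunit of the enhanceosome shared by class I and class II genes, fell to 0.884 times with gRNA1 (adjusted p = 0.0256). IRF9, the DNA-binding subunit of the type I interferon factor ISGF3, rose by 1.16-fold with gRNA2 (adjusted p = 0.0433) and by 1.22-fold between the guides (adjusted p = 0.0127), and its partner STAT2 rose by 1.11-fold between the guides (adjusted p = 0.0311). CIITA, the activator of class II genes, rose by 1.16-fold with gRNA2 (adjusted p = 0.0442). Against the control these calls are fragile: that of IRF9 held without 1 of the 9 libraries (gRNA1 3), that of CIITA without 1 (also gRNA1 3) and that of RFX5 without 3 (the gRNA2 libraries), with adjusted p up to 0.163, 0.163 and 0.102 otherwise. Over 8 other ways of analysis the gRNA2 call of IRF9 held in 2 (adjusted p up to 0.721), that of CIITA in 4 (up to 0.597), the gRNA1 call of RFX5 in 6 (up to 0.374) and, between the guides, STAT2 in 5 (up to 0.633) and IRF9 in 7. Between the guides IRF9 was lost without gRNA1 1 or 2 or gRNA2 2 (adjusted p 0.0502 to 0.0681), and STAT2 held without control 1 or 3 only, with adjusted p up to 0.129 otherwise.

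NLRC5, the main activator of class I genes, averaged 50.98 ± 1.86 CPM in gRNA1 libraries, 57.71 ± 3.95 CPM in gRNA2 libraries and 50.55 ± 3.82 CPM in control libraries (SD, n = 3 each). It was at 1.01 times control with gRNA1 (adjusted p = 0.915), where HLA-B and TAP2 fell, and at 1.15 times with gRNA2 (adjusted p = 0.0569), a fold that passed without control library 1 (adjusted p = 0.0262) or gRNA2 library 3 (0.0332). Between the guides its fold was 1.13 (adjusted p = 0.0952). Over 8 other ways of analysis the gRNA2 fold of NLRC5 over control passed in 2, and the NLRC5 fold between the guides passed in 1. IRF1, an interferon-induced transcription factor, averaged 21.43 ± 0.969 CPM in gRNA1 libraries, 24.08 ± 0.137 CPM in gRNA2 libraries and 22.53 ± 0.36 CPM in control libraries, and its fold between the guides was 1.12 (adjusted p = 0.0933). Of 7 class II genes and partners, 6 were tested and none passed in any comparison. HLA-DRA, the chain that defines class II cells, had 4 to 20 reads per library.

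Across the 9 libraries the 9 genes moved together to differing degrees. Of the 36 pairs, 34 had a Pearson correlation of log2 CPM above 0, with a median of 0.608, from -0.175 for PSMB8 with PSMB9 to 0.938 for HLA-B with HLA-C. These are descriptions over 9 libraries in 3 groups, and for HLA-B and HLA-C the shared sequence enters as well. Among 10595 genes of sufficient level, those whose log2 CPM was most like the mean of the 9 genes included TNPO2 (r = 0.988), CYP27A1 (0.982), SLC3A2 (0.976) and GABARAPL1 (0.972). SLC3A2, an amino acid transporter subunit, averaged 105 CPM in gRNA1 libraries, 136 CPM in gRNA2 libraries and 128 CPM in control libraries.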

How the data were processed

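The 9 RNA-seq libraries were total RNA made with the KAPA RNA HyperPrep kit after ribosomal RNA removal, per the labels' protocols. The authors' quantification used Salmon 1.4.0 and hg38, per the submitters' processing notes. Per the file headers, each deposited table gives an estimated count of reads per transcript and TPM, beside lengths; nothing else was done to the deposited estimated counts. The strand setting and the transcript set are not given in the sources used here.

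Each table lists 211939 transcripts, of which 202851 are in the GENCODE 29 primary annotation and 9088 are not. Of these 9088, 7792 had a gene symbol in the GENCODE 29 metadata and were added to the primary gene of that symbol, because most MHC reads lay there. The members were first defined on primary-assembly sums, which miss those reads. Summing over both kinds of transcript, used for the main values, was thus chosen after seeing where the reads lay. The primary-assembly sums were then run as an alternative, also after the data were seen. Reads with no gene were 0.117% to 0.139% per library and were left out. Sums were rounded and tested in edgeR 4.0.16 (R 4.3.3; filterByExpr, TMM scaling, quasi-likelihood F tests of 3 contrasts in a single fit of all 9 libraries, two-sided). Genes were called at 0.05 after Benjamini-Hochberg adjustment over the 19851 tested, and the biological coefficient of variation was 0.0483. Every adjusted p is from this test unless DESeq2 1.42.0 is named. CPM use TMM-scaled library sizes, and TPM, summed over a gene's transcripts, entered no test. Intervals are 95%, from the spread edgeR estimates. For correlations, log2 CPM had a prior count of 2 and genes needed an average of at least 3.

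Genes named are the 9 members, up to 4 called genes by lowest adjusted p from each of 5 further lists, the catalytic proteasome subunits, NLRC5, IRF1 and the 5 genes most alike; some genes this rule picks are not reported here. Members and lists were chosen with earlier results of these data known. Promoters are RefSeq's for GRCh38.p14, and TRIDENT was matched to TRIDDENT through a RefSeq synonym. Scripts were tested on simulated data. Sums and figures were made in Python 3.11.15 with numpy 2.4.6, pandas 2.3.3 and matplotlib 3.10.9. Alternatives were DESeq2, other scaling, no filter, a replicate block, the compared groups alone, a transcript length offset, protein-coding transcripts alone, the primary assembly alone and each library left out.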

Additional observations from a re-analysis of the deposited data

Results flagged for a closer look

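Between the guides, 6 of the 9 genes differed by the test of that difference itself, gRNA2 over gRNA1. The folds were 1.28 for HLA-B, 1.19 for HLA-C, 1.14 for HLA-E, 1.1 for B2M, 1.14 for TAP2 and 1.11 for TAPBP. In CPM all 3 gRNA2 libraries were above all 3 gRNA1 libraries in each of these genes, as for 11.9% of all genes; in TPM HLA-C and TAP2 overlapped. With the transcript length offset only HLA-B kept its call (adjusted p = 0.00153). Whether the libraries of a group are separate cultures is not given, so the spread behind these tests may be technical. The target RNA was at 1.27 times its gRNA1 level in gRNA2 libraries (95% interval 0.998 to 1.61, adjusted p = 0.255), and its part in these differences was not tested.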

How the results depend on the processing

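Among all genes, calls with gRNA1 (1459) were 561 with the length offset and 651 on protein-coding transcripts, those with gRNA2 (1744) were 455 and 870, and those between the guides (1273) were 463 and 816; leaving out 1 library gave 697 to 1821, 765 to 1958 and 622 to 1299. Of the 9 members, gRNA1 calls (2) were 0 with the offset, 0 on protein-coding transcripts and 1 on the primary assembly (HLA-C), with 0 to 3 over left-out libraries. The gRNA2 count (0) was 1, HLA-B, with DESeq2 (adjusted p = 0.0265), no filter (0.00761), the replicate block (0.046) and the offset (0.0284), and 0 to 1 over left-out libraries. Between the guides (6), 1 remained with the offset, 2 on protein-coding transcripts and 2 on the primary assembly, with 1 to 6 over left-out libraries. The causes were not tested.

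Deviations of samples with the same number had correlations of -0.171 to 0.247, within the -0.292 to 0.311 of other numbers. For gRNA2 with control the same-number values were all above 0 (0.247, 0.026 and 0.132), and the others ran from -0.213 to 0.11. The replicate block was kept as an alternative only. It gave 1357, 1690 and 1230 calls over all genes and 2, 1 and 6 members.

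None of the reversed folds passed the test. In log2, TAPBP on the primary assembly was 0.13 with gRNA1, -0.45 with gRNA2 and -0.57 between the guides, with 13 to 50 reads per library. With gRNA2 on the primary assembly HLA-B was -0.0454 and PSMB8 0.45; with the offset TAP1 was 0.0525 and TAP2 0.00301. On protein-coding transcripts TAP1 was -0.18, PSMB8 -0.00214 and MICA -0.59 between the guides, and NLRC5 was -0.0123 with gRNA1. With 1 library left out, gRNA2 folds that changed sign ran from -0.113 to 0.0551 for TAP1 (above 0 without control 1, gRNA2 2 or gRNA2 3), -0.0156 to 7.84e-05 for TAP2, -0.0209 to 0.13 for PSMB9 (below 0 without control 2 or gRNA2 1) and -0.168 to 0.000572 for TRIDDENT. With gRNA1 they ran from -0.0336 to 0.0733 for NLRC5 (below 0 without control 2 or gRNA1 3). Of 955 alternative values of single genes, 750 kept direction and call, 171 lost the call, 14 gained it and 20 reversed. For genes not called between the guides, the intervals still allow folds of up to 1.61 for the target RNA and 1.26 for PSMB9 and TAP1. In TPM, an alternative chosen after seeing the data, the members with no overlap with control were 2 below with gRNA1 (7 in CPM) and 2 above with gRNA2 (1 in CPM). The shares of all genes shifted likewise, from 14.6% in CPM to 8.12% in TPM below and from 13.8% to 17.3% above.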
